A study of Homo sapiens with 36 samples.

Results

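Nucleolar ribosome biogenesis factors are the proteins that transcribe, process and assemble ribosomal RNA into ribosomal subunits. A set of 38 genes of this kind was taken by symbol, and every symbol matched a single Ensembl identifier among the 60675 genes of the count table. By role, 4 genes serve RNA polymerase I transcription, 3 form the core of box C/D small nucleolar ribonucleoproteins (snoRNPs), 4 form box H/ACA snoRNPs, 5 code for abundant or many-role nucleolar proteins, 10 act in assembly of the small (40S) subunit and 12 in assembly of the large (60S) subunit. The rule names the genes and uses no threshold on a measured value, although the set was put together with earlier results of these data known. All 38 passed the filter on low counts in every comparison described here.

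RNA was sequenced from SW1783, a human astrocytoma line, and HT29, a human colorectal adenocarcinoma line, after 24 h of treatment. In batch B the cells received vehicle or ACD, made from Aconitum carmichaeli Debeaux by extraction with hot water, at a low (20 µg/mL), medium (100 µg/mL) or high (500 µg/mL) dose. In batch A they received vehicle or 10 µM wortmannin, an inhibitor of phosphoinositide 3-kinase (PI3K) that served as positive control. The question was in which cells the extract acts more strongly, with 3 libraries in each of 12 groups. The labels give 0.1% DMSO as the vehicle of both batches, and the design text of the series names another share. Whether the replicates came from separate cultures is not stated, so p-values measure the spread between these libraries, which may be technical.

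Ribosome production starts in the nucleolus, where RNA polymerase I copies the ribosomal DNA into a long precursor RNA. Box C/D snoRNPs add methyl groups to that precursor and box H/ACA snoRNPs convert uridines to pseudouridines, while the small subunit processome and the large subunit assembly factors cut, fold and package it. The pathway is among the costliest of a growing cell, it is regulated by MYC and by signalling through PI3K and mTOR, and its disturbance in tumour cells is known to stabilise p53.

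The 36 libraries held 15941255 to 33866644 counts. Mitochondrial ribosomal RNA rose from a mean of 0.93% of the counts in SW1783 vehicle to 5.93% at the high dose, and from 1.18% to 11.96% in HT29. Vimentin (VIM) marked SW1783 and EPCAM marked HT29, whereas the astrocyte markers S100B and GFAP were near 0 in SW1783, with medians of 0.0828 and 0.0879 CPM. HT29 high replicate 2 stood apart from its group, with a chi-square per degree of freedom of 64.4 and 65.2 against replicates 1 and 3, which differed from each other by 9.35. HT29 vehicle replicate 1 also lay apart, in batch B above both other replicates in 20 of the 38 genes and below both in 9, each time by more than the others differed. Vehicle libraries of batches A and B that carry one number differed by 1.44 to 1.61, less than any 2 replicates of a group (1.65 to 65.2), and whether they came from the same RNA is not stated. No member was called between these vehicle groups in either line, against 0.00348% of all tested genes in SW1783 and 0% in HT29. DESeq2 and edgeR both called 0, and 0 members had an unadjusted p under 0.05. If the RNA was shared, this comparison cannot show a difference between the batches.

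The starts of many of these genes share a sequence feature. Of the 33 members with at least 1 promoter entry in RefSeq (build GRCh38.p14, 250 bases before to 50 bases after a transcription start), 17 held the E-box letters CACGTG, the palindrome that MYC and related factors can bind, which was 51.5% of members. BOP1, NOLC1, NOP58, RRP12 and RRS1 had no entry. The same letters stood in 10.9% of 15843 protein-coding genes, in 25.5% of 102 other ribosome biogenesis genes and in 8.33% of 36 cytosolic ribosomal protein genes. The palindrome reads alike on both strands and is a description of the letters, not evidence of binding. Stretches of 30 bases around it are given for some of the members whose values are described further on. They are written 5′ to 3′ on the strand of the gene, with the E-box in capitals. They show how close the letters lie to a RefSeq start.
UTP20: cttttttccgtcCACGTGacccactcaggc
UTP4: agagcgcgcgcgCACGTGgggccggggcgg
DDX21: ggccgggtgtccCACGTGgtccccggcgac
LYAR: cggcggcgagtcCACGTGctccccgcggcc
RRP9: gggttcagctgcCACGTGagttctgcggcc
GNL2: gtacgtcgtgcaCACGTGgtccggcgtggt
FBL: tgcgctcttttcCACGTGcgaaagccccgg
The stretches lie at chr12:101280083-101280112 (plus strand) for UTP20, chr16:69132621-69132650 (plus) for UTP4, chr10:68956604-68956633 (plus) for DDX21, chr4:4290068-4290097 (minus) for LYAR, chr3:51941892-51941921 (minus) for RRP9, chr1:37595917-37595946 (minus) for GNL2 and chr19:39846356-39846385 (minus) for FBL. Distances are to the RefSeq start of the window that holds the E-box, and a gene can have other starts. The first base of the E-box was 10 bases before that start in UTP20, 16 in UTP4, 31 in DDX21, 64 in LYAR and 5 in RRP9. DDX21 and LYAR each have another RefSeq window, further upstream, without the letters. The stretches of DDX21, LYAR and UTP4 lie inside the GENCODE extents of these genes, downstream of the outermost start. It was base 4 after the RefSeq start in GNL2 and base 7 in FBL, in transcribed sequence. Widening the search to CACGTG or CATGTG raised the share of all protein-coding genes to 20.8% and that of the members only to 54.5%, a single gene more. Letters of other common promoter motifs were also frequent, with CCGGAAG, an ETS-type core, in 39.4% of members and in 16.5% of protein-coding genes, and GGGCGG, a GC box, in 75.8% and 64.3%, each counted on both strands. The median GC content of the windows was 64% in members and 62.3% in protein-coding genes.

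In untreated cells the members spanned a wide range of levels, given here as TPM (transcript counts divided by the exonic length of the gene and scaled to the same total), as mean ± SD of 3 vehicle libraries of batch B. NPM1, an abundant nucleolar chaperone, was highest in both lines, at 535 ± 4.26 TPM in SW1783 and 522 ± 4.74 in HT29. NPM1 has 49 named pseudogenes with which reads can be shared, so its level is uncertain. FBL, the methyltransferase of box C/D snoRNPs, and NCL, a nucleolar RNA-binding protein, followed in HT29 at 463 ± 19.9 and 338 ± 16.7 TPM, against 192 ± 4.71 and 193 ± 0.807 in SW1783. The lowest level in both lines was that of DDX10, a helicase of the small subunit processome, at 8.57 ± 0.378 TPM in SW1783 and 10.2 ± 0.366 in HT29. Dividing by the longest transcript in place of the exonic length kept NPM1 first in both lines and moved DDX10 from rank 38 to 36.

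The 3 HT29 libraries lay above the 3 SW1783 libraries for 18 members and below them for 15. Of all expressed genes 30.5% were above and 53.4% below by the same rule. LYAR, a nucleolar protein of proliferating cells, was 2.24-fold and POLR1B, the second largest subunit of RNA polymerase I, 1.98-fold higher in HT29 on the TPM scale, and FBL differed most, by 2.41-fold. MYBBP1A, a repressor of ribosomal RNA transcription, and PES1, a subunit of the PeBoW complex of 60S assembly, were lower in HT29, at 0.472 and 0.579 times the SW1783 level. The 3 core box C/D proteins FBL, NOP56 and NOP58 were all higher in HT29, as were the box H/ACA proteins DKC1, GAR1 and NOP10, whereas NHP2 overlapped between the lines. The median ratio of HT29 to SW1783 was 1.08 over the members and 0.795 over all genes at 1 TPM or more in either line.

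**Figure D1:**
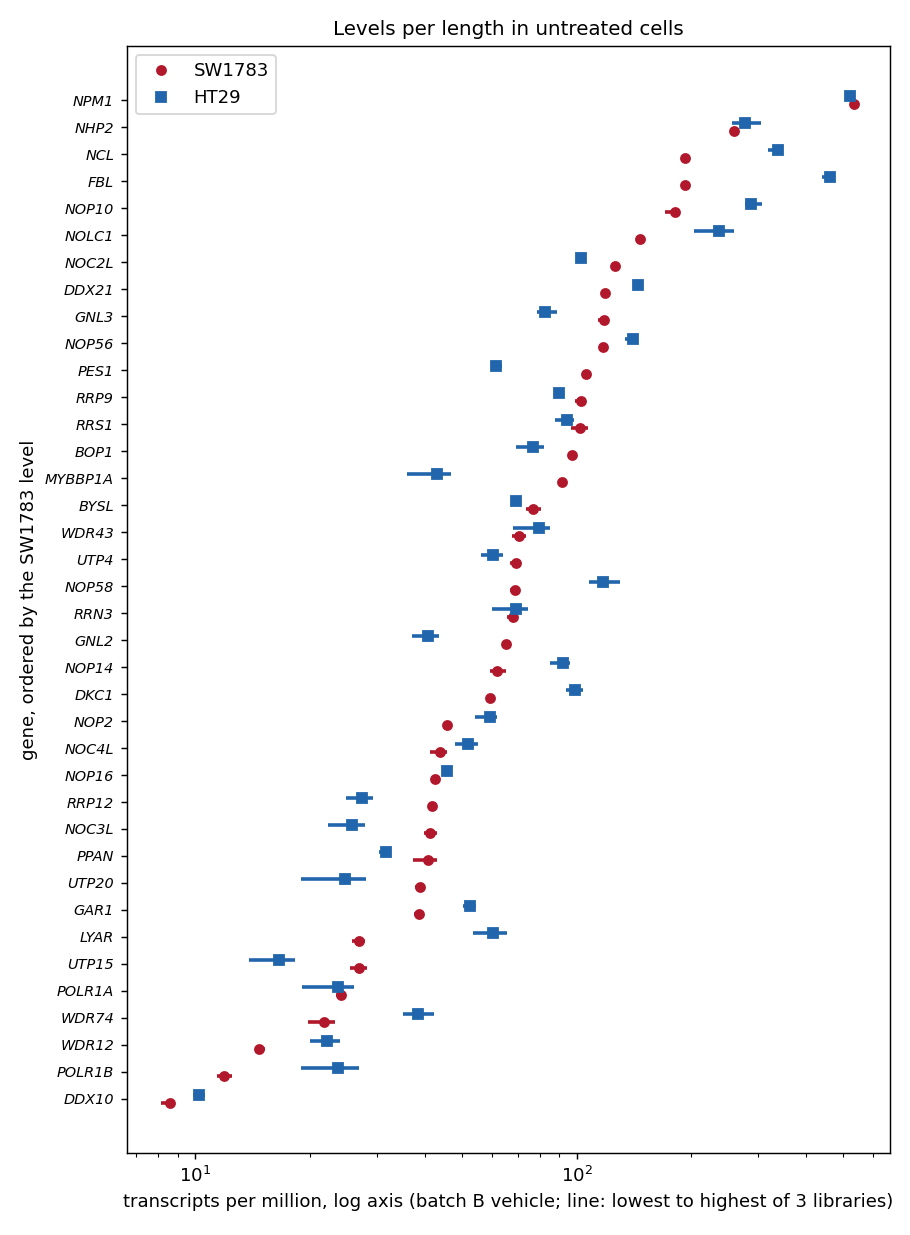
Levels of the 38 genes in batch B vehicle libraries, in TPM on a log axis, with the mean of 3 libraries as a point (circles SW1783, squares HT29) and a line from the lowest to the highest library. NPM1 is highest in both lines and DDX10 lowest, and FBL lies 2.41-fold higher in HT29.

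At the high dose of ACD members rose and fell in SW1783, and 5 rose in HT29, whereas wortmannin lowered 34 of 38 in SW1783 and 18 in HT29. A gene was called when its adjusted p in the Wald test of DESeq2 was under 0.05, and called a differentially expressed gene (DEG) when its fold change also passed 1.5. In SW1783 at the high dose 18 of 38 members were called higher and 8 lower, where 23.9% of all 19453 tested genes were called higher and 22.6% lower. None of the 38 was a DEG, while 8.66% and 9.57% of all genes were DEGs that rose and fell. The median log2 fold change of the members was 0.099, with 0.094, 0.099 and 0.148 in the 3 libraries, and that of all genes averaging at least 100 normalized counts (well-counted genes) was 0.024. All 38 members are well-counted, and such genes are called more often than all tested genes. Of 11263 well-counted genes 4037 were called higher and 3547 lower. Scaling to library totals, which moves the median of well-counted genes to -0.09, gave 9 members higher and 12 lower. Under this scaling 18% of tested genes were higher and 31.1% lower, so the split between rises and falls depends on the scaling. Size factors computed without mitochondrial genes kept all 38 results on the same side and the median of well-counted genes at 0.024. These factors are medians over many genes, of which few are mitochondrial, so this alternative could hardly change a result. Of the 26 calls, 15 were kept under every alternative other than the 1.5-fold threshold, which is set aside in all such counts.

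The largest fall was in NOP56 (chr20:2652593-2658393, plus strand), a core protein of box C/D snoRNPs. Its normalized counts in SW1783 were 2943.0, 2977.0 and 2991.1 in vehicle and 2059.5, 1966.7 and 1931.5 at the high dose. All high-dose libraries lay below all vehicle libraries, and NOP56 changed by -0.58 ± 0.04 on the log2 scale (SE, n = 3 per group, DESeq2 adjusted p = 2.86e-49), a 1.5-fold fall that stopped just short of the DEG threshold. Introns of NOP56 host snoRNA genes, of which 5 overlap annotated exons of NOP56, and reads from these cannot be told apart where counting does not separate them. These 5 (SNORA51, SNORD110, SNORD56, SNORD57 and SNORD86) held 0 counts in the SW1783 vehicle and high-dose libraries of batch B. That does not show where such reads were counted. NOP58, which pairs with NOP56 in the same particle, had a smaller fall (-0.13 ± 0.06, DESeq2 adjusted p = 0.0462), whereas FBL, their methyltransferase partner, did not pass the test (-0.03 ± 0.05). The fall of NOP58 passed under 7 of 14 alternatives (highest adjusted p = 0.2 by DESeq2) and was lost with the replicate block, with only the groups compared and without any 1 of 5 single libraries (each vehicle library, high replicate 2 and high replicate 3).

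Box H/ACA genes moved little. GAR1, a subunit of these particles, had normalized counts of 396.6, 374.1 and 392.4 in vehicle and 456.1, 481.1 and 434.0 at the high dose, with no overlap and a change of 0.24 ± 0.09 on the log2 scale (DESeq2 adjusted p = 0.0246). GAR1 passed under 9 of 14 alternatives. It was the only call among 4, since DKC1, the pseudouridine synthase, NHP2 and NOP10 had estimates between -0.04 and 0.08 that did not pass.

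Among the abundant nucleolar proteins 3 of 5 rose and none fell. DDX21 (chr10:68956135-68985068, plus strand), an RNA helicase that couples RNA polymerase I transcription to processing, rose from 5727.1, 5597.4 and 5700.1 normalized counts to 7494.7, 7191.2 and 7221.7. The groups did not overlap, and the log2 fold change was 0.36 ± 0.03 (DESeq2 adjusted p = 1.51e-36). NOLC1, a chaperone of snoRNPs, rose by 0.28 ± 0.04 on the log2 scale, and NPM1 by 0.10 ± 0.03. NPM1 turned to -0.02 under scaling to library totals. NCL and LYAR did not pass the test, at -0.07 ± 0.04 and 0.07 ± 0.10.

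Factors of 40S assembly were split between 5 rises and 2 falls of 10. DDX10 rose from 814.6, 802.5 and 760.8 normalized counts to 1048.8, 1044.2 and 1022.3, a difference of 0.39 ± 0.07 on the log2 scale (DESeq2 adjusted p = 5.7e-08). UTP20 (chr12:101280105-101386618, plus strand), a very large scaffold protein of the small subunit processome, fell from 2041.2, 1996.6 and 1951.4 to 1492.2, 1370.3 and 1366.5, by 0.50 ± 0.05 on the log2 scale (DESeq2 adjusted p = 5.24e-24). Neither gene had overlapping groups, so that members of one complex moved in opposite directions. RRP9, the U3 snoRNA-binding protein, RRP12, an export and maturation factor, and the processome subunits WDR43 and UTP15 were the other rises, with log2 fold changes of 0.35, 0.19, 0.16 and 0.14. The rise of UTP15 passed under only 5 of 14 alternatives, with values from 0.03 to 0.18. UTP4, in the subcomplex that also holds WDR43 and UTP15, was the second fall. Its counts were 2023.8, 1910.8 and 2029.4 in vehicle and 1727.2, 1744.2 and 1713.5 at the high dose, without overlap (-0.20 ± 0.05, DESeq2 adjusted p = 5.24e-05). BYSL, NOP14 and NOC4L, also of the small subunit pathway, did not pass, with estimates between -0.03 and 0.13.

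Factors of 60S assembly gave 7 rises and 3 falls of 12. GNL2 (chr1:37566816-37595937, minus strand), a GTPase of 60S export, rose from 1912.1, 1880.1 and 1963.9 normalized counts to 2490.1, 2394.7 and 2436.5, by 0.35 ± 0.05 on the log2 scale (DESeq2 adjusted p = 2.91e-12). BOP1, a scaffold of the PeBoW complex, fell from 1923.4, 1889.8 and 1912.9 to 1533.9, 1537.9 and 1593.8, at -0.29 ± 0.05 on the log2 scale (DESeq2 adjusted p = 3.14e-09). In both genes the groups were apart. The PeBoW partners differed from BOP1, since PES1 rose (0.19 ± 0.04) and WDR12 did not pass the test (0.10 ± 0.07). NOP2, an rRNA methyltransferase, PPAN, GNL3 (nucleostemin), WDR74 and NOC3L were the other rises, between 0.16 and 0.27 on the log2 scale. NOC2L and RRS1 fell, with log2 fold changes of -0.21 ± 0.04 and -0.22 ± 0.07, while NOP16 did not pass (-0.02 ± 0.07). The rise of NOC3L passed under 6 of 14 alternatives and was lost with library totals, the length trend removed, the replicate block, only the groups compared and without vehicle replicate 2 or 3 or high replicate 2 or 3. That of WDR74 passed under 9 of 14. PPAN shares exons with a readthrough gene, so its counts are less certain. That gene was assigned 0 counts in the SW1783 vehicle and high-dose libraries of batch B.

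RNA polymerase I genes also moved in opposite directions. POLR1B (chr2:112541915-112579818, plus strand) rose from 572.8, 545.8 and 528.7 normalized counts to 784.9, 800.0 and 787.5, by 0.53 ± 0.07 on the log2 scale (DESeq2 adjusted p = 2.27e-13), which was the largest rise of the 38. POLR1A (chr2:86020216-86106155, minus strand), the largest subunit of the same enzyme, fell from 2465.4, 2349.7 and 2495.7 to 1913.6, 1831.6 and 1904.3, by 0.37 ± 0.04 (DESeq2 adjusted p = 6.18e-17). The 2 subunits lay on either side of their vehicle libraries without overlap. RRN3, the factor that recruits the polymerase to its promoter, rose by 0.33 ± 0.05, and MYBBP1A did not pass the test (0.09 ± 0.04).

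**Figure D2:**
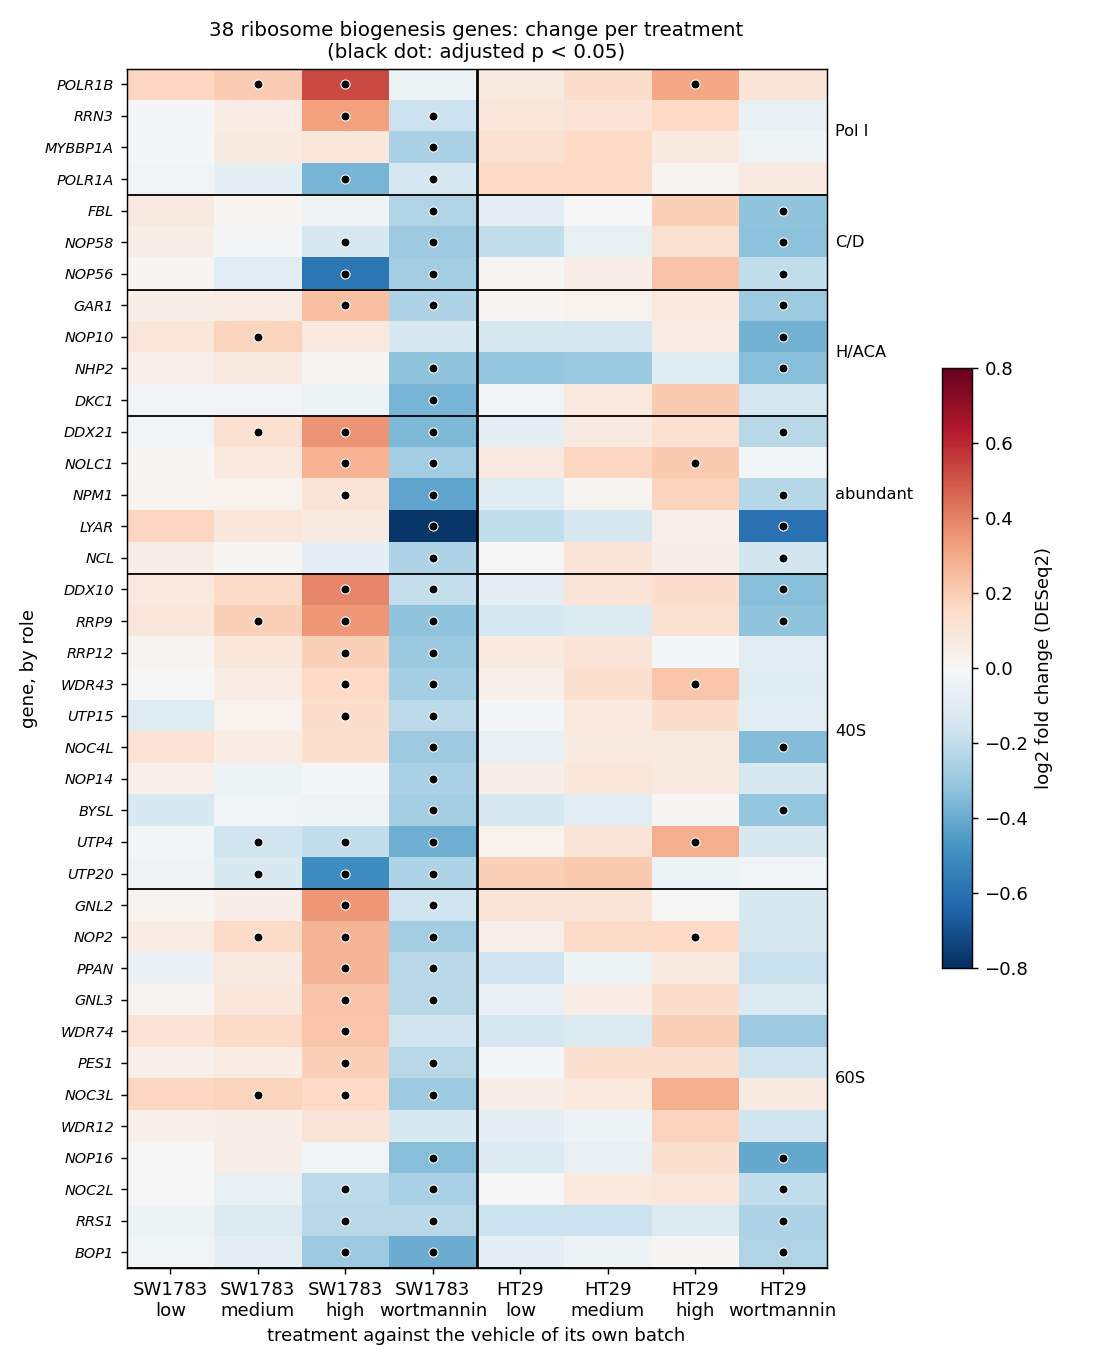
Log2 fold change of the 38 genes, in rows by role, against the vehicle of the same batch for each dose of ACD and for wortmannin in SW1783 and HT29. Rises and falls stand side by side in SW1783 at the high dose, from -0.58 in NOP56 to 0.53 in POLR1B, while the SW1783 wortmannin column is below 0 for all 38.

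Fewer members were called at the lower doses in SW1783. At the medium dose 6 of 38 members were called higher and 2 lower, where 15.1% and 14.5% of all tested genes were, and the median was 0.055. Of 11263 well-counted genes 1994 were called higher and 1907 lower. No member was a DEG (2.34% and 1.48% of tested genes). The rises were in NOC3L, RRP9, POLR1B, NOP10, NOP2 and DDX21, with log2 fold changes between 0.12 and 0.20, and the falls were in UTP4 (-0.16 ± 0.05) and UTP20 (-0.12 ± 0.05). None of the 8 calls was kept under every alternative, and leaving out vehicle replicate 2, vehicle replicate 3 or medium replicate 2 gave 3 calls. Scaled to library totals the medium dose gave no rise and 10 falls, where 6.51% of tested genes rose and 29.2% fell. The balance thus depends on the scaling. Mitochondrial rRNA was highest at this dose, at 7.83% of the counts, and its part in the split was not tested. At the low dose DESeq2 called none of 38, where 2.05% of tested genes were higher and 1.24% lower (0.0967% and 0.0215% as DEGs). At an unadjusted p under 0.05 it held 2 members, both higher, and edgeR called 1. Individual estimates at the low dose reached 0.17 ± 0.06 in NOC3L (DESeq2 adjusted p = 0.0782).

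The high dose was also compared directly with the medium dose in SW1783, with 11 members higher and 6 lower, where 21.1% and 19.8% of all tested genes were, and with no DEG among them (4.58% and 5.61% of tested genes). Of these 17 calls 11 were kept under every alternative. Of 11263 well-counted genes 3192 were called higher and 2822 lower. NOP56 fell by 0.50 ± 0.04 between these doses (DESeq2 adjusted p = 4.3e-35), UTP20 by 0.39 ± 0.05 and POLR1A by 0.30 ± 0.04. POLR1B rose by 0.33 ± 0.07 and GNL2 by 0.30 ± 0.05. For NOP56 the medium libraries held 2846.8, 2763.3 and 2782.6 normalized counts, and the low libraries 2923.0, 3000.9 and 3061.7. The medium libraries lay below all vehicle libraries, although the change of -0.09 did not pass the test, and the low libraries overlapped vehicle. For POLR1B the low libraries held 625.2, 610.0 and 614.2 and the medium libraries 625.9, 643.1 and 617.2, all above vehicle and all below the high dose.

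**Figure D3:**
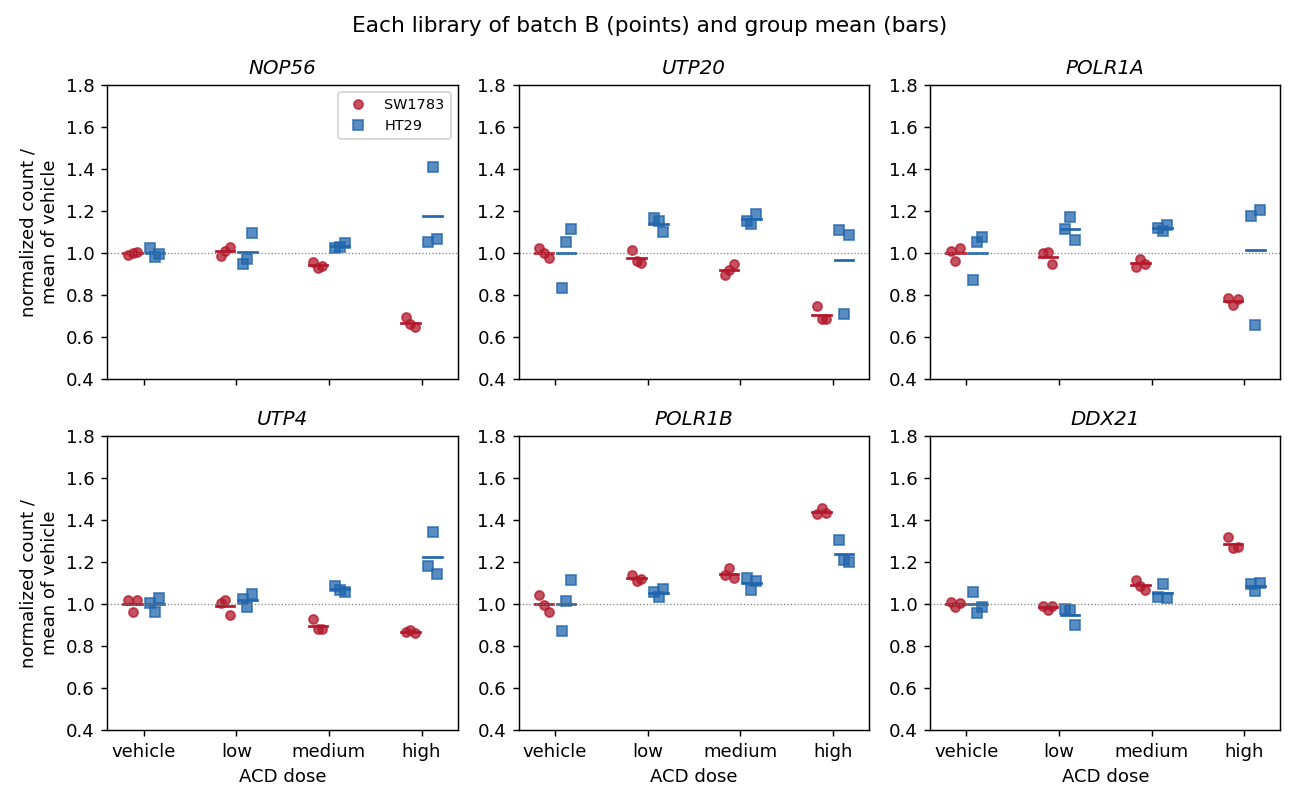
Normalized counts of NOP56, UTP20, POLR1A, UTP4, POLR1B and DDX21 divided by the mean of the vehicle libraries of the same line, at each dose of ACD (circles SW1783, squares HT29, a point per library). In SW1783 the high-dose libraries of NOP56, UTP20, POLR1A and UTP4 lie below vehicle and those of POLR1B and DDX21 above, while 1 HT29 high-dose library, replicate 2, stands apart in several panels.

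In HT29 at the high dose 5 members were called higher and none lower by DESeq2, where 4% of tested genes were higher and 3.62% lower, and 34 of 38 estimates were positive. None was a DEG (1.29% and 1.63% of tested genes). The median was 0.120, and 0.080, 0.215 and 0.056 in the 3 libraries, the highest in replicate 2. Of 10927 well-counted genes 578 were called higher and 454 lower, and 6249 estimates were positive. UTP4 had the lowest adjusted p, with 2568.3, 2467.9 and 2635.5 normalized counts in vehicle and 3020.2, 3439.7 and 2922.4 at the high dose (0.29 ± 0.07, DESeq2 adjusted p = 0.0015). All high-dose libraries were above all vehicle libraries, in the opposite direction to SW1783. POLR1B rose by 0.31 ± 0.09, WDR43 by 0.22 ± 0.06, NOLC1 by 0.21 ± 0.06 and NOP2 by 0.16 ± 0.06. All 5 calls were lost under at least 1 alternative, and the number fell to 0 when only the vehicle and high-dose libraries were fitted.

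Replicate 2 of the HT29 high dose weighed on these values, since it lay above both other replicates in 24 members and below both in 9, each time by more than those differed from each other. Without it 8 members were called, 7 higher and 1 lower, where 9.89% and 7.61% of tested genes were. UTP4, POLR1B, WDR43, NOLC1 and NOP2 were among them, joined by MYBBP1A (0.27), POLR1A (0.25) and NHP2 (-0.34). The median of the members was 0.068 without replicate 2. Estimates of BYSL, GNL2, LYAR, NHP2, NOP10, NOP16, NOP58, RRS1 and WDR74 were then negative. POLR1A shows the effect of this library, with 3056.8, 3688.3 and 3770.7 normalized counts in vehicle and 4122.6, 2306.2 and 4216.4 at the high dose. Replicates 1 and 3 lay above all vehicle libraries and replicate 2 below them. Left-out libraries among the others gave 2 calls (without vehicle replicate 2), 3 (without vehicle replicate 1, high replicate 1 or high replicate 3) or 4 (without vehicle replicate 3). Scaled to library totals, which moves the median of well-counted genes from 0.032 to -0.114, DESeq2 called no member higher and 1 lower. Of tested genes 1.85% were then higher and 11.2% lower, beside the mitochondrial rRNA share of 11.96%.

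At the medium and low doses DESeq2 called none of the 38 in HT29, against 1.15% higher and 0.942% lower of tested genes at the medium and 0.302% and 0.315% at the low dose, nor between high and medium (0.971% and 0.733%). As DEGs these shares were 0.426% and 0.401%, 0.145% and 0.17%, and 0.387% and 0.312%. At an unadjusted p under 0.05 there were 3 higher and 1 lower at the medium dose, 2 lower at the low dose and 3 higher between high and medium, and edgeR called 0 in all 3 comparisons. The estimates of the members varied with transcript length. Over the 38 genes the Spearman correlation of the log2 fold change with the length of the longest transcript was 0.71 at the medium dose, 0.61 at the low dose and 0.70 for wortmannin in HT29, and 0.38, 0.44 and 0.38 over all well-counted genes. These points share libraries and the first 2 also share vehicle, so the values are descriptions. The vehicle of the wortmannin comparison may come from the same RNA too. In SW1783 the corresponding values were -0.16, -0.34 and 0.18. The long members UTP20 and POLR1A were on the positive side of this relation (0.21 and 0.16 at the medium dose), and the short members NHP2 and NOP10 on the negative side (-0.30 and -0.14). The vehicle library that stood apart, replicate 1, was low in UTP20, with 1545.0 normalized counts against 1956.5 and 2066.2. Its part in the relation was not tested.

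**Figure D4:**
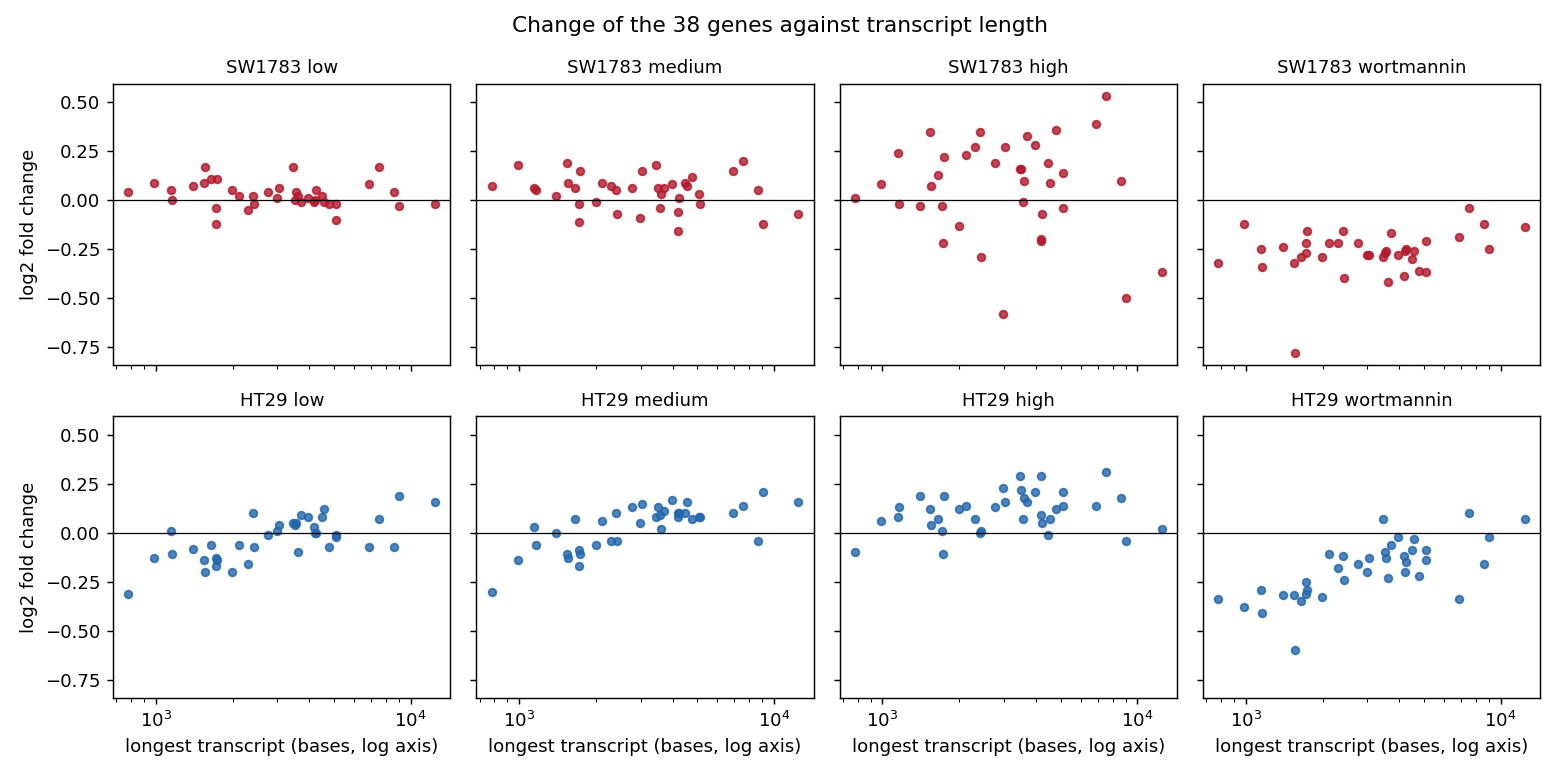
Log2 fold change of the 38 genes against the length of the longest annotated transcript (log axis, bases), a panel per treatment and line. The rise with length is seen in HT29 at the low and medium doses and with wortmannin (Spearman 0.61, 0.71 and 0.70) and not at the high dose in SW1783 (0.01).

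The difference between lines at the high dose was tested as the interaction of line and dose, given as SW1783 minus HT29 on the log2 scale. It passed for 7 members, 2 positive and 5 negative, where 12.7% and 15% of all tested genes passed. NOP56 was the only one beyond 1.5-fold, as 6.86% and 7.77% of tested genes were. NOP56 differed most, by -0.85 ± 0.11 (DESeq2 adjusted p = 6.45e-13). In HT29 its normalized counts were 5402.7, 5170.0 and 5260.3 in vehicle and 5555.7, 7431.5 and 5633.5 at the high dose, all above vehicle, with replicate 2 far above the rest. Without replicate 2 the difference was -0.72. UTP4 differed by -0.53 ± 0.07 (DESeq2 adjusted p = 9.07e-12), a fall in SW1783 beside a rise in HT29. UTP20 differed by -0.50 ± 0.17 (DESeq2 adjusted p = 0.0149). Its HT29 counts were 1545.0, 1956.5 and 2066.2 in vehicle and 2062.9, 1316.4 and 2012.2 at the high dose, overlapping groups with a low replicate 2. The difference was -0.68 without that library, and it no longer passed with library totals, with only the groups compared (DESeq2 adjusted p = 0.108), or without HT29 vehicle replicate 1 (-0.39), high replicate 1 (-0.39) or high replicate 3 (-0.41). NOC2L and BOP1 were each at -0.34, GNL2 at 0.31 ± 0.08 and DDX21 at 0.20 ± 0.06. GNL2 in HT29 held 1739.6, 1731.9 and 1838.6 counts in vehicle and 1704.9, 1967.7 and 1659.8 at the high dose, and these groups overlapped. POLR1A did not pass with all libraries (-0.44 ± 0.20, DESeq2 adjusted p = 0.0973) and did without HT29 replicate 2, at -0.67 (adjusted p = 3.34e-13), when 14 members passed, 5 positive and 9 negative, against 15.8% and 18.7% of tested genes. At the medium dose RRP9 (0.27 ± 0.08) and UTP4 (-0.28 ± 0.07) differed between lines, against 4.26% and 6.18% of tested genes in these directions, and at the low dose DESeq2 and edgeR called none (0.307% and 0.622%), with 2 members positive at an unadjusted p under 0.05.

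Wortmannin lowered most of the set. In SW1783 34 of 38 members fell and none rose, where 20.1% of tested genes fell and 13.8% rose, and all 38 estimates were negative. The median was -0.263, between -0.289 and -0.251 in the 3 libraries, against -0.020 over well-counted genes. Of 11589 well-counted genes 2758 fell and 1805 rose. The members together took 0.446% of the counts in vehicle and 0.367% with wortmannin. All 3 box C/D genes, all 5 abundant nucleolar proteins and all 10 genes of 40S assembly fell, as did 3 of 4 box H/ACA genes, 10 of 12 of 60S assembly and 3 of 4 RNA polymerase I genes. NOP10, WDR12, WDR74 and POLR1B were the 4 that did not pass, with estimates between -0.16 and -0.04. Of the 34 calls 26 were kept under every alternative. In bulk RNA, fewer cells making a transcript and less of it per cell cannot be told apart.

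LYAR and NPM1, singled out after their values were seen, had the largest falls in SW1783. LYAR (chr4:4267701-4290154, minus strand) held 405.0, 387.5 and 400.0 normalized counts in SW1783 vehicle and 222.5, 229.8 and 240.8 with wortmannin, a fall of 1.72-fold (-0.78 ± 0.11, DESeq2 adjusted p = 2.49e-11). In HT29 it held 1260.6, 981.7 and 902.9 in vehicle and 671.2, 695.1 and 706.1 with wortmannin, a 1.51-fold fall (-0.60 ± 0.12, DESeq2 adjusted p = 1.45e-05). It did not overlap in either line and was the only DEG among the members in each, where 0.983% and 0.731% of tested genes were DEGs that fell (1.74% and 1.92% rose as DEGs). NPM1 held 27007.2, 26673.4 and 27745.6 in SW1783 vehicle and 20524.8, 20405.5 and 20091.6 with wortmannin (-0.42 ± 0.02, DESeq2 adjusted p = 1.32e-95), and in HT29 32877.5, 28960.9 and 29093.2 against 25973.4, 25412.6 and 26029.0 (-0.23 ± 0.06). Groups were apart in both lines. BOP1 (-0.40), UTP4 (-0.39), DKC1 (-0.37) and DDX21 (-0.36) were the next largest falls in SW1783.

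In HT29 18 members fell and none rose with wortmannin, where 11.1% of tested genes fell and 7.63% rose, 35 of 38 estimates were negative and the median was -0.171. Of 10872 well-counted genes 1493 fell and 927 rose. All 3 box C/D genes, 3 of 4 box H/ACA genes and 4 of 5 abundant proteins fell, against 4 of 10 of 40S assembly, 4 of 12 of 60S assembly and none of 4 RNA polymerase I genes. The longest transcripts of NHP2, NOP10 and GAR1 span 780 to 1146 bases, and those of the RNA polymerase I genes 3706 to 12480. The part of transcript length in these differences by role was not tested. NOP16 (-0.41), NOP10 (-0.38) and NOC4L (-0.35) followed LYAR. Only 5 of the 18 calls were kept under every alternative. In all, 9 members were called without wortmannin replicate 2 and 11 without wortmannin replicate 1. Removing the trend with transcript length, an alternative added after the values were seen, gave 11 calls (8.94% of tested genes then fell), among them DKC1 and WDR12, which had not passed before, while BOP1, BYSL, GAR1, NHP2, NOC4L, NOP10, NOP16, RRP9 and RRS1 no longer passed. No library was shared by the 2 lines, and 17 members fell in both, which was 50% of those called in SW1783 and 94.4% of those called in HT29. Since 34 of 38 fell in SW1783, most HT29 calls had to be among them, and the overlap says little about agreement between lines. Of 11931 genes tested in both lines, 2623 fell in SW1783, 1477 in HT29 and 909 in both, 34.7% and 61.5% of the respective calls. A smaller part of all genes than of the members fell, so these shares and those of the members are not directly comparable.

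The interaction of line and wortmannin passed for 10 members, all lower in SW1783 than in HT29, where 9.53% of tested genes were negative and 5.33% positive. NOC3L (-0.39 ± 0.09), UTP4 (-0.29 ± 0.06), NOLC1 (-0.28 ± 0.05), MYBBP1A (-0.26 ± 0.08), DKC1 (-0.25 ± 0.06), POLR1A and RRP12 (both -0.23), NPM1 (-0.21), DDX21 (-0.17) and NCL (-0.13) were these genes. Between 5 and 16 members passed when single libraries were left out, the lowest number without SW1783 wortmannin replicate 3 or HT29 wortmannin replicate 3 and 16 without HT29 vehicle replicate 1, and 2 of the 10 calls were kept under every alternative. Across the 38 genes this difference correlated with transcript length (Spearman -0.56), and its part in the calls was not tested.

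**Figure D5:**
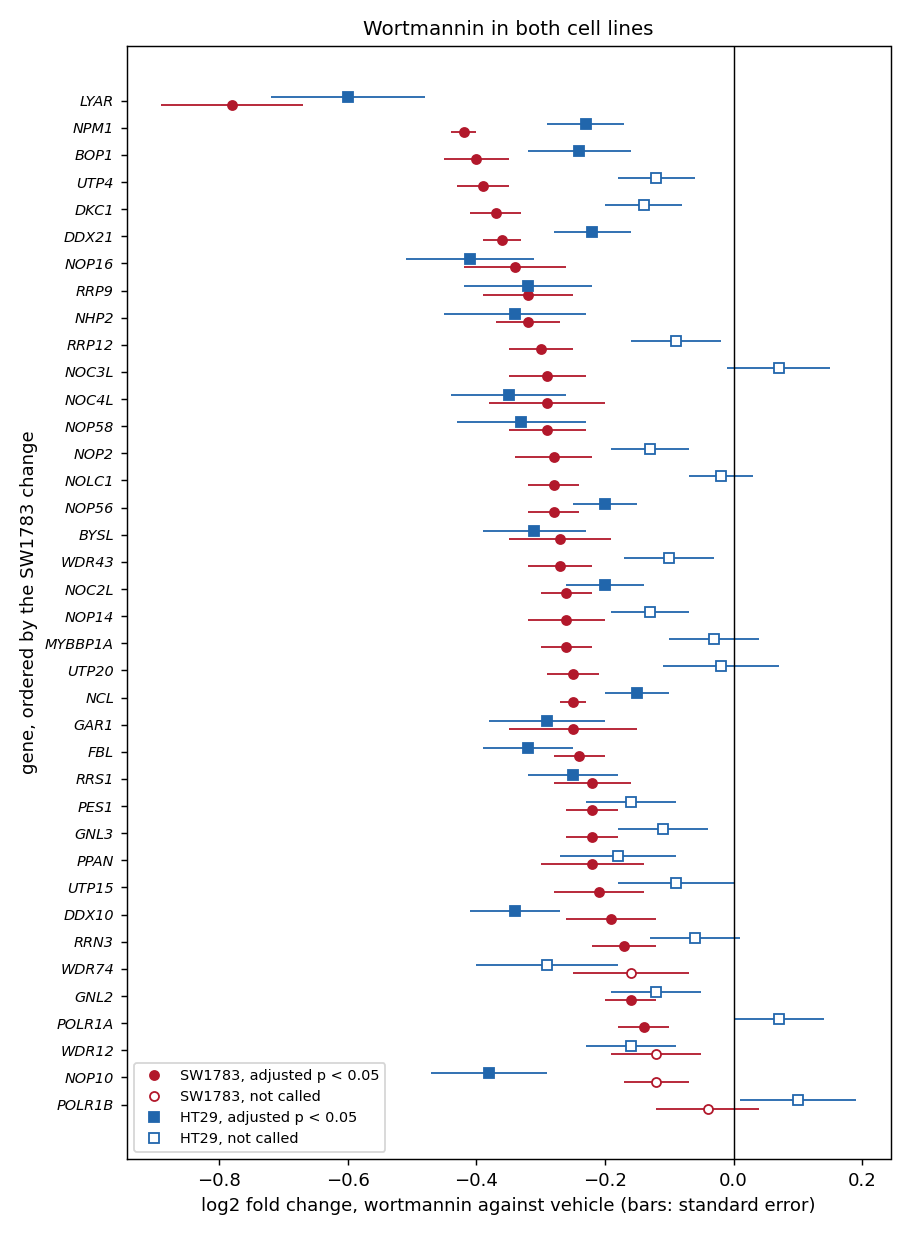
Log2 fold change ± SE of the 38 genes after wortmannin in SW1783 and HT29 (n = 3 libraries per group), with filled symbols for genes called by DESeq2. LYAR is lowest in both lines, at -0.78 and -0.60, and the HT29 values of the RNA polymerase I genes lie near 0.

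Other genes of the pathway were counted from a list of 119 further ribosome biogenesis factors. In SW1783 at the high dose 42 rose and 23 fell, with a median of 0.062, where 4037 and 3547 of 11263 well-counted genes did, with a median of 0.024. EFL1, a GTPase of 60S maturation (1.08 ± 0.07), and TAF1A, a subunit of the RNA polymerase I selectivity factor (1.14 ± 0.14), rose most among those with well-counted values, and UBTF, the upstream binding factor of the same promoter (-0.54 ± 0.05), fell most. FBLL1, a paralogue of FBL, had the largest estimate at a mean of only 9.035 normalized counts. The falls of IMP3 (-0.46), FTSJ3 and RRP36 (both -0.45) followed. With wortmannin 67 of the list fell and 2 rose in SW1783, and 31 fell and none rose in HT29 by DESeq2. Of well-counted genes 2758 of 11589 fell and 1805 rose in SW1783, and 1493 of 10872 fell and 927 rose in HT29. In HT29 at the high dose 9 rose and none fell, where 578 and 454 of 10927 well-counted genes did. MAK16 (0.34 ± 0.09), POLR1E (0.33 ± 0.10) and WDR3 (0.28 ± 0.07) came first among these rises. POLR1E, a further RNA polymerase I subunit, fell in SW1783 (-0.40 ± 0.06), and the lines differed by -0.76 ± 0.10. Of 46 cytosolic ribosomal protein genes 19 rose and 2 fell in SW1783 at the high dose, while with wortmannin 21 fell and 2 rose in SW1783 and 15 fell in HT29. The numbers of well-counted genes given above for each comparison are the background here too.

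MYC, a transcription factor known to bind E-boxes, held 900.7, 875.2 and 987.7 normalized counts in SW1783 vehicle and 2945.1, 2637.9 and 2806.9 at the high dose, a rise of 1.60 ± 0.06 on the log2 scale. In HT29 the estimate was 0.12 ± 0.07 and did not pass (DESeq2 adjusted p = 0.355). Wortmannin gave 0.07 ± 0.06 in SW1783 and 0.06 ± 0.05 in HT29, neither of which passed, beside falls in 34 and 18 members. Of the MYC network 8 of 10 tested genes rose and 2 fell in SW1783 at the high dose, led by MYCL (2.70) and MXD1 (1.90) and, downward, MXD4 (-0.92) and MXD3 (-0.57), and 1 rose (MXI1, 0.31) and 1 fell (MXD4, -0.74) in HT29. Of 20 p53 target genes 10 rose and 3 fell in SW1783, with BBC3 (3.55) and SESN2 (2.74) highest and ZMAT3 (-0.71) and TP53I3 (-0.62) lowest, and 3 rose and 1 fell in HT29, among them SESN2 (1.12), PMAIP1 (0.88) and SESN1 (-0.73). Beside both lists, 23.9% of all tested genes rose and 22.6% fell in SW1783 at the high dose, and 4% and 3.62% in HT29.

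Members with and without the E-box letters were set side by side. Of the 17 with CACGTG 9 rose and 2 fell in SW1783 at the high dose, with a median of 0.16, and of the 16 without it 7 rose and 3 fell, with a median of 0.10. Of 1133 other well-counted genes with these letters 465 rose and 323 fell, and of 7705 without them 2717 rose and 2499 fell. With wortmannin 16 of 17 and 13 of 16 fell in SW1783, with medians of -0.26 and -0.23, and 7 of 17 and 8 of 16 fell in HT29, with medians of -0.13 and -0.19. Of other well-counted genes with and without the letters, 302 of 1146 and 1972 of 7858 fell in SW1783, and 161 of 1092 and 1068 of 7321 in HT29. Of the genes whose sequences are printed above, UTP20 and UTP4 fell and DDX21, GNL2 and RRP9 rose in SW1783 at the high dose. Genes with these letters near a RefSeq start thus went both ways.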

How the data were processed

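Per the labels and methods, RNA libraries of 36 samples were sequenced, and the authors trimmed reads, aligned them with STAR and counted them per gene with RSEM. The submitters' processing notes list Trim Galore 0.6.5, STAR 2.7.3a and RSEM 1.3.3, and the methods name GRCh38 together with hg19. The strand setting of the counting was not given in the sources used here. The deposited table holds expected counts, of which 8.84% were not whole, and these were rounded. Groups were taken from the labels. DESeq2 1.42.0 (R 4.3.3, Wald test, Benjamini-Hochberg adjustment over all tested genes) was fitted per line and batch, and across lines for interactions. Values per library are counts divided by DESeq2 size factors, separately by batch. Alternatives were edgeR 4.0.16 quasi-likelihood, TMM, library totals, size factors without mitochondrial genes, a mean count of 10 or more, the replicate block, only the groups compared, each library left out and, added after the data were seen, removal of a length trend. The fits were tested on simulated data. The 38 genes and all lists were chosen with earlier results of these data known. Values of every library were given for the largest called rise and fall of each role in SW1783 at the high dose and for the 3 largest line differences. Gene positions are from GENCODE and promoter letters from RefSeq, GRCh38.p14. Depth was 15941255 to 33866644 counts per library.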

Additional observations from a re-analysis of the deposited data

Results flagged for a closer look

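The response of 7 members to the high dose of ACD differed between the lines in the interaction test of DESeq2, given as SW1783 minus HT29 on the log2 scale. The values were -0.85 for NOP56, -0.53 for UTP4, -0.50 for UTP20, -0.34 for both NOC2L and BOP1, 0.31 for GNL2 and 0.20 for DDX21. At the medium dose RRP9 differed by 0.27 and UTP4 by -0.28. With wortmannin 10 members differed, by -0.39 in NOC3L, -0.29 in UTP4, -0.28 in NOLC1, -0.26 in MYBBP1A, -0.25 in DKC1, -0.23 in POLR1A and RRP12, -0.21 in NPM1, -0.17 in DDX21 and -0.13 in NCL. UTP4 is in all 3 lists, and vehicle libraries are shared between the medium and high doses. Whether the batch A vehicle of the wortmannin comparison came from the same RNA as that of batch B is not stated. The 3 lists are therefore not separate observations of UTP4.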

How the results depend on the processing

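Numbers of members called and medians over the members are given. When a fold change over 1.5 was also required, 0 members were called in SW1783 at the high dose, medium dose and between them, 0 in HT29 at the high dose, 1 with wortmannin in each line, and 1, 0 and 0 in the interactions at the high and medium doses and with wortmannin. Scaling to library totals gave medians of -0.015, -0.056 and -0.02 in SW1783 at the high, medium and low doses and -0.239 with wortmannin. In HT29 it gave -0.029 with 1 call at the high dose, -0.07 with 1 call between high and medium, and -0.115 with wortmannin, and -0.098 for the medium interaction. Between high and medium 0.612% of tested genes were then higher and 4.61% lower in HT29. With it NHP2 (-0.10) and NPM1 (-0.02) in SW1783 at the high dose and NCL (-0.10) at the medium dose turned downward, by construction of the scaling. edgeR called 1 member in SW1783 at the low dose, 1 in HT29 at the high dose and 6 in the wortmannin interaction (median -0.096). TMM factors gave 3 calls in HT29 at the high dose and medians of 0.085 in HT29 at the medium dose and -0.095 in the wortmannin interaction. Fitting only the groups compared gave 0 calls in HT29 at the high dose and 8 in the medium interaction. Removing the length trend gave medians of 0.018 (SW1783 high against medium), -0.225 (SW1783 wortmannin), 0.061 (HT29 medium), -0.113 with 11 calls (HT29 wortmannin), -0.045 (medium interaction) and -0.099 (wortmannin interaction), and 11 calls in the high interaction. In that high interaction 15.5% of tested genes were positive and 17.5% negative. The cause of these shifts was not tested.

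Within a batch the replicate numbers were not taken as pairs, since the study's methods name no block. In HT29 batch B same-numbered libraries correlated between -0.461 and 0.326 in their deviations, and differently numbered ones between -0.495 and 0.528. In SW1783 batch B same-numbered libraries ranged from -0.118 to 0.221, with 5 of 18 pairs over 0.1, and differently numbered ones from -0.158 to 0.098. Some pairing by number may thus be present in SW1783 batch B, where the main fit ignores it. Across batches, vehicle libraries of one number differed less than those of different numbers. With a replicate block 5 members were called in SW1783 at the medium dose, 3 in HT29 at the high dose, 1 between HT29 vehicles and 3 in the wortmannin interaction.

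With single libraries left out, 20 to 25 members were called in SW1783 at the high dose, 3 to 6 at the medium dose, 13 to 15 between them and 30 to 35 with wortmannin. In HT29 2 to 8 were called at the high dose and 9 to 20 with wortmannin, and in the interactions 7 to 14 at the high dose, 2 to 3 at the medium dose and 5 to 16 with wortmannin. Medians ranged from 0.055 to 0.082 (HT29 medium), -0.049 to 0.001 (HT29 low), -0.192 to -0.147 (HT29 wortmannin), -0.041 to 0.002 (medium interaction) and -0.136 to -0.102 (wortmannin interaction). Most called changes of the members were below 1.5-fold.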
